A study of Mus musculus with 6 samples.

Results

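Solute carriers are the membrane proteins that move amino acids, sugars, ions, metals, vitamins, nucleotide sugars and lipids across the plasma membrane and across the membranes of lysosomes, the Golgi and other organelles. They are numbered by family, and the members of a family share a fold and, as a rule, a type of substrate. The genes were taken by name: every protein-coding gene of the count table whose symbol starts with Slc, leaving out the Slc25 carriers of the inner mitochondrial membrane. That gave 166 of the 14774 genes in the table, in 46 families, and 143 of them in 43 families passed the filter on low counts and were tested among 11939 genes. The organic anion transporters Slco2a1 and Slco2b1 came in under the same letters, and 4 of the genes carry the name without being transporters (Slc4a1ap, Slc7a6os and the scaffold proteins Slc9a3r1 and Slc9a3r2).

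RNA was sequenced from MA-10 cells, a line from a mouse Leydig cell tumor that makes progesterone, and from STARKO1 cells, with 3 libraries of each. STARKO1 is a single clone of MA-10 cells in which Star, the gene of the steroidogenic acute regulatory protein that brings cholesterol into mitochondria, was targeted in the second exon with CRISPR/Cas9. The MA-10 cells are labelled wild type and the STARKO1 cells STAR KO, both lines come from the same tumor line, and no treatment is named for either. The comparison of STARKO1 with MA-10 asks which genes differ between the clone and its parent line, and with 1 clone, the targeted gene and the choice of the clone cannot be told apart. The study's methods speak of independent experiments in general, but neither the labels nor the methods say so of the sequenced libraries, so the p-values measure only the spread between these libraries, which may be technical.

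Totals ran from 14114349 to 19530054 estimated counts per library. Star itself had 1064, 1261 and 697 counts in the MA-10 libraries and 48, 46 and 36 in the STARKO1 libraries, a log2 fold change of -5.09 (SE 0.331, adjusted p = 0.00121). All 10 listed Leydig cell markers were detected, with a summed level of 2152 to 2789 CPM (counts scaled to a library of 1000000) in MA-10 and 1861 to 1949 CPM in STARKO1. Hsd3b1, a steroid dehydrogenase, was the 1 of these 10 with an adjusted p below 0.05, and it was lower in STARKO1 (27.8, 37.2 and 24.3 against 5.12, 5.72 and 4.72 CPM). Above that threshold (adjusted p 0.0568 to 0.189), Lhcgr, Cyp11a1 and Hsd3b6 were lower in every STARKO1 library than in any MA-10 library. Nr5a1, Fdxr and Cyp17a1 were higher in the same way. Of the 5 genes listed for each of 5 other testicular cell types, 1 Sertoli cell, 2 macrophage, 2 endothelial, 2 germ cell and 2 peritubular genes were in the table. Among them Cdh5 rose (26.1 to 41.3 against 117 to 123 CPM) and Des fell (12.5 to 20.1 against 1.29 to 2.30 CPM), and their part in the results below was not tested.

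The MA-10 libraries were not alike, and the solute carriers showed it. Over the 143 tested genes, the median absolute log2 difference of MA-10 replicate 1 was 0.27 to 0.32 to the STARKO1 libraries, but 0.69 and 0.53 to MA-10 replicates 2 and 3. It was the MA-10 library nearest to the STARKO1 mean for 85 of the 143 genes, or 59.4%, beside 64.0% of all tested genes. Signal recognition particle RNA (7SL) took 1.81% of the counts in MA-10 replicate 1, 14.4% and 6.63% in MA-10 replicates 2 and 3, and 1.82% to 2.37% in STARKO1. The share of ribosomal protein genes was 4.04%, 8.06% and 7.16% in MA-10, beside 3.76% to 3.92% in STARKO1. The solute carriers together took 0.583%, 0.273% and 0.320% of the MA-10 counts and 0.588%, 0.585% and 0.60% of the STARKO1 counts. MA-10 replicates 2 and 3 were thus low in solute carrier reads and high in 7SL and ribosomal protein reads, and the part of that difference in what follows was not tested.

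Levels are given in CPM on library sizes scaled by the trimmed mean of M values (TMM). A gene was called when edgeR's quasi-likelihood test gave an adjusted p, by the method of Benjamini and Hochberg over all tested genes, below 0.05. By that rule 12 of the 143 solute carriers were called (8.39%), beside 1079 of 11939 genes (9.04%). Of the 12, 6 were higher in STARKO1 (background 4.3%) and 6 lower (background 4.74%), so solute carriers were called about as often as genes in general. Slc15a1, Slc7a14 and the uncalled Slc2a9 and Slc12a5 passed the filter on low counts through 1 line alone, which favours a difference between the lines. Without such genes, 10 of 139 solute carriers were called (5 higher and 5 lower), or 7.19%, beside 8.01% of all genes left. Slc15a1, Slc4a2, Slc2a4, Slc23a2, Slc7a2 and Slc35g1 rose, and Slc7a14, Slc16a3, Slc40a1, Slc46a3, Slc35e4 and Slc7a11 fell. In each of the 12 the libraries of the lines did not overlap, beside 42.5% of all tested genes. The 12 were called from the same values, so this adds no support to the calls. In bulk RNA, fewer cells with a transcript and less of it per cell cannot be told apart.

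**Figure D1:**
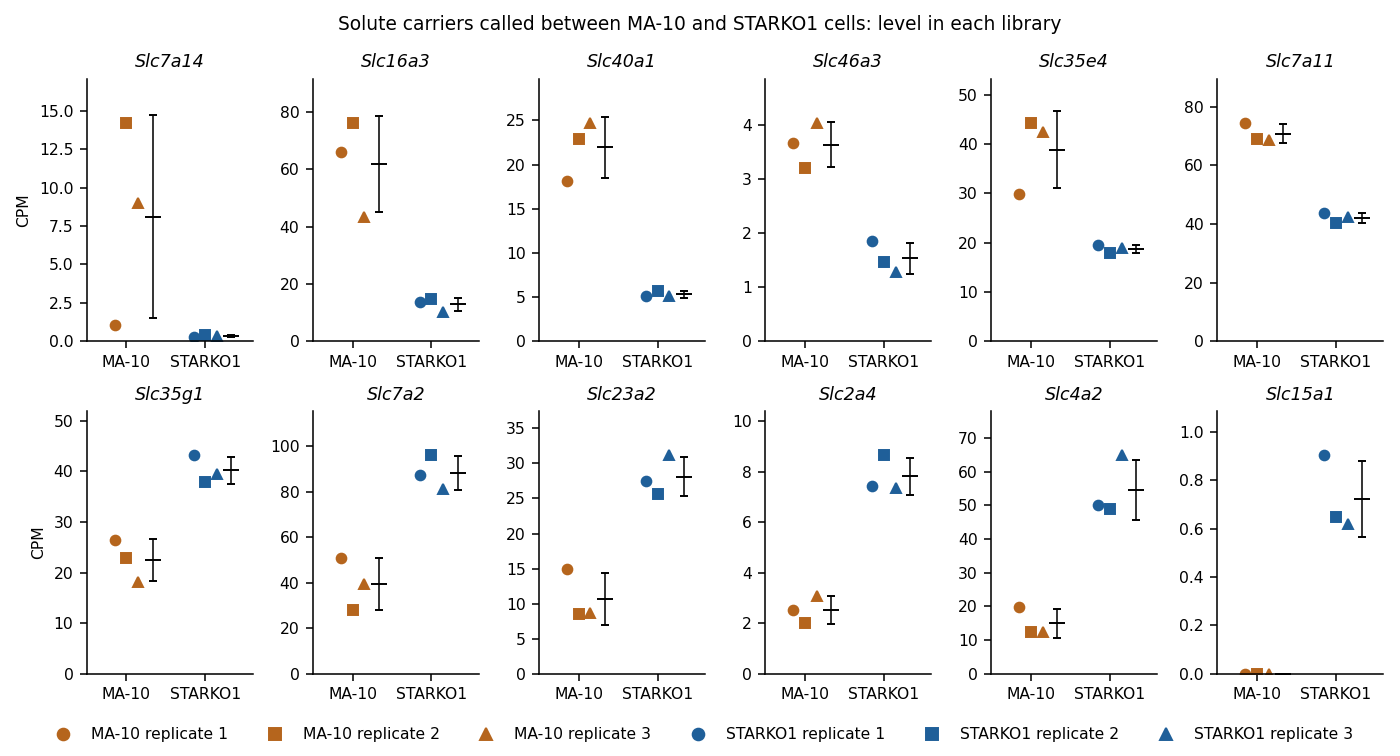
Level of the 12 called solute carriers in each library, in CPM on a linear axis that starts at 0, with the mean and SD of the 3 libraries beside the points. The top row holds the 6 genes that were lower in STARKO1 and the bottom row the 6 that were higher, and MA-10 replicate 1 is the lowest MA-10 library of Slc7a14 at 1.09 CPM.

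The whole group lay somewhat to the STARKO1 side. Its median log2 fold change was 0.21, beside -0.05 over all tested genes, and 65.7% of its members had a positive value beside 47.1% of all genes. With Slc15a1, which had no count in MA-10, set to the lower bound of its fold, the median was again 0.21. At an unadjusted p under 0.05 there were 49 members (32 higher and 17 lower), or 34.3%, beside 37.6% of all genes. All 3 STARKO1 libraries lay above all 3 MA-10 libraries for 42 members (background 21.5%), and the reverse held for 18 (background 21%). Another 22 members had an adjusted p of 0.05 to 0.1, of which 12 were higher and 10 lower, and the nearest to the threshold were Slc39a3 (adjusted p = 0.0504), Slc41a2 (0.0517) and Slc9a3r2 (0.0522). With library sizes alone in place of TMM, the median of all genes moved to 0.38 and that of the solute carriers to 0.60. The share of higher genes among all calls then moved from 47.5% to 63.6%, and 3 members were called higher and 2 lower. The 41 tested Slc25 carriers, for comparison, had a median of 0.12 and 6 calls (3 higher and 3 lower). These calls were 14.6% of the Slc25 carriers, beside 8.39% of the solute carriers and 9.04% of all genes.

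Most of these calls, and most of those over all genes, did not hold in every fit with a library left out. Without MA-10 replicate 1, 101 of 147 tested solute carriers were called, 80 higher and 21 lower, beside 65.7% of all tested genes (34% higher and 31.7% lower). All of the 12 were among the 101, and the medians moved to 0.55 for solute carriers and 0.06 for all genes. Without MA-10 replicate 2, 7 of the 12 kept the call, without MA-10 replicate 3 it was 3, and without STARKO1 replicate 1, 2 or 3 it was 1, 2 and 1. Over all genes the calls in the same order were 511, 181, 89, 135 and 93, beside 1079 from all 6 libraries. Of the 12, Slc40a1 was the 1 gene called in all 6 fits with a library left out. Slc16a3 was called in 4, Slc2a4 in 3, Slc15a1, Slc4a2, Slc7a2 and Slc7a11 in 2, and the other 5 in 1. With library sizes alone, Slc15a1, Slc16a3, Slc40a1, Slc2a4 and Slc4a2 kept the call, and the adjusted p of the other 7 of the 12 ran from 0.0535 for Slc7a14 to 0.418 for Slc7a11. Upper quartile scaling ended the calls of Slc46a3 (adjusted p = 0.0619) and Slc7a11 (0.0707). A fit without a library has fewer samples, so a call lost there does not show a smaller change.

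**Figure D2:**
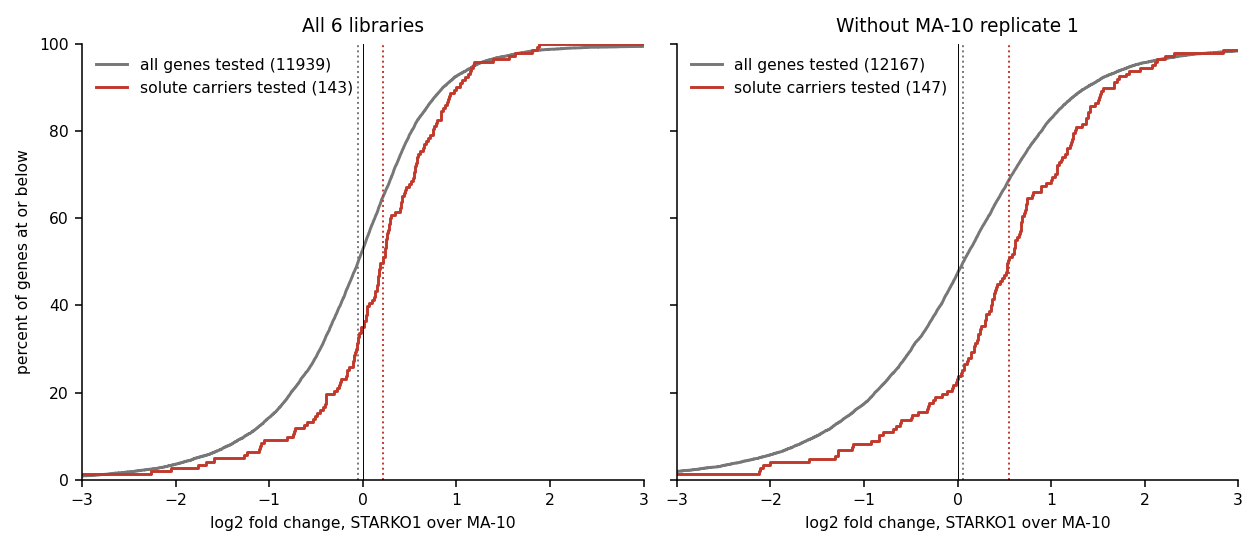
Percent of genes at or below each log2 fold change (STARKO1 over MA-10) for the tested solute carriers and for all tested genes, with dotted lines at the medians, from all 6 libraries and without MA-10 replicate 1. The medians are 0.21 and -0.05 in the left panel and 0.55 and 0.06 in the right panel.

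Amino acid and peptide carriers made up the largest class by reads, with 1568 to 2213 CPM in MA-10 and 2320 to 2487 CPM in STARKO1 over its 33 genes. Of the 25 tested, 2 rose (Slc7a2 and Slc15a1) and 2 fell (Slc7a14 and Slc7a11). The class median was 0.41, all STARKO1 libraries lay above all MA-10 libraries for 11 genes and the reverse held for 3, beside 21.5% and 21% of all tested genes, and 4 calls in 25 stand beside 9.04% of all. Slc15a1 and Slc7a14 are in these counts, though they passed the filter on low counts through 1 line alone, which favours a difference. The class share of calls is therefore no sign of more change than in other genes. Without MA-10 replicate 1, 17 of 26 tested were called higher and 3 lower (34% and 31.7% of all genes).

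Slc7a11 is the cystine/glutamate exchanger that feeds glutathione synthesis. It lies on chromosome 3 at 49892526 to 50443614, minus strand, in the mm10 (GRCm38) build of the files. Its promoter window, from RefSeq on GRCm38.p6 and running from 250 bases before the start to 50 after it, is printed because the gene is a textbook target of Atf4 and Nfe2l2, both on the list of regulators given further on. In capitals are the matches on either strand to TGATGNAA, the letters of the amino acid response element, and to TGANNNNGC, those of the antioxidant response element, and the longest run of capitals is an overlap of both.
Slc7a11 (chr3:50443564-50443863, minus strand): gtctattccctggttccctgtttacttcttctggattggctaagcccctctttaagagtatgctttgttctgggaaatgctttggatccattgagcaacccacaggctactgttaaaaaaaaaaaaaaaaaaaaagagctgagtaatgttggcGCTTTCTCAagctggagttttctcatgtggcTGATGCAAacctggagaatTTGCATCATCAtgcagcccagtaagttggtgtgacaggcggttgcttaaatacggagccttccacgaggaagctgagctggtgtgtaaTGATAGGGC
The window holds 2 matches to TGATGNAA, letters found in 1.98% of the 8779 promoters of tested genes in the same table and in 6 of the 111 of tested solute carriers, and 3 to TGANNNNGC, found in 43.2%. The levels of Slc7a11 were 74.6, 69.1 and 68.8 CPM in MA-10 and 43.7, 40.4 and 42.5 CPM in STARKO1. On the TMM scale, the 3 libraries of each line lay close together, MA-10 replicate 1 included, and the lines were apart. The TMM factors were 1.16, 0.654 and 0.805 in the MA-10 libraries and 1.17 to 1.19 in the STARKO1 libraries. With library sizes alone the lines overlapped and the call was lost, as given above. The gene fell by 0.75 on the log2 scale (SE 0.139, adjusted p = 0.0270). The call was lost without MA-10 replicate 3 or without any 1 STARKO1 library (adjusted p 0.0870 to 0.184).

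Slc7a11 works as a pair with Slc3a2, the heavy chain that carries several Slc7 light chains to the cell surface. Slc3a2 had 363, 536 and 411 CPM in MA-10 and 300.4, 345 and 349 CPM in STARKO1, with no overlap but no call (log2 fold change -0.40, adjusted p = 0.213). Slc7a5, the light chain for large neutral amino acids such as leucine, had 370.1, 118 and 145 CPM in MA-10 and 413, 447 and 464 CPM in STARKO1. MA-10 replicate 1 was close to STARKO1 here, the other MA-10 libraries were far below, and the difference of 1.06 (log2, SE 0.436) gave no call (adjusted p = 0.126). Per kilobase of exon, Slc7a5 stood to Slc3a2 as 0.971, 0.210 and 0.335 in the MA-10 libraries and as 1.31, 1.23 and 1.27 in the STARKO1 libraries, a ratio chosen after its values were seen. The other light chains tested, Slc7a6 (0.45) and Slc7a8 (0.46), had STARKO1 above MA-10 in every library and no call.

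Slc7a2, a carrier of arginine, lysine and ornithine (chromosome 8, 40862396 to 40922308, plus strand), had 50.9, 28.2 and 39.6 CPM in MA-10 and 87.3, 96.2 and 81.3 CPM in STARKO1. Every STARKO1 library was above every MA-10 library, and the gene rose by 1.16 on the log2 scale (SE 0.237, adjusted p = 0.0353). Its exons share 6.95% of their bases with Gm26584 on the opposite strand. The call was lost without MA-10 replicate 3 or any STARKO1 library (adjusted p 0.133 to 0.158). Slc7a1, the more general carrier of the same amino acids, had 297, 121 and 151 CPM in MA-10 and 319, 331 and 377 CPM in STARKO1, a difference of 0.85 (SE 0.348, adjusted p = 0.126) that was not called.

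Slc7a14, a lysosomal member of the family (chromosome 3, 31202858 to 31310378, minus strand), had 1.09, 14.2 and 8.98 CPM in MA-10 and 0.301, 0.413 and 0.337 CPM in STARKO1, from 19, 164 and 102 counts and from 7, 7 and 6. MA-10 replicate 1 was far below the other MA-10 libraries and still above every STARKO1 library. The log2 fold change was -4.50 (SE 0.942, adjusted p = 0.0369), the widest error of the lower genes. No STARKO1 library reached the minimum of the filter on low counts, so the gene was tested only because it was high in MA-10, and its p is no support for the difference. It was -3.80 without MA-10 replicate 2 and -4.95 without MA-10 replicate 1, and the call held only in the latter of the 6 fits with a library left out (adjusted p in the others 0.0823 to 0.172).

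Slc15a1, the proton-coupled peptide transporter of the gut and kidney (chromosome 14, 121459621 to 121505252, minus strand), had 0 counts in each MA-10 library and 21, 11 and 11 counts in the STARKO1 libraries. The gene was thus seen in STARKO1 only, at a low level of 0.903, 0.648 and 0.618 CPM. Against 3 counts in the MA-10 library where 3 counts weigh most, it was at least 2.74-fold higher (adjusted p = 0.0240). The gene passed the filter on low counts through STARKO1 alone, so this p is no support for the difference. The call was lost without MA-10 replicate 3 or any STARKO1 library (adjusted p 0.0715 to 0.124). The other tested member of the family, the lysosomal Slc15a4, had 19.0, 5.90 and 8.98 CPM in MA-10 and 21.5, 18.4 and 20.9 CPM in STARKO1 (log2 fold change 0.83, adjusted p = 0.175).

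None of the 5 tested Slc38 genes, which carry glutamine and other small neutral amino acids, was called. Their log2 fold changes ran from -0.49 for Slc38a6 to 0.59 for Slc38a10, with adjusted p from 0.127 to 0.439. The 5 tested Slc6 genes, sodium-coupled carriers of taurine, creatine, glycine and proline, were not called either. Of these the taurine carrier Slc6a6 came nearest, with 136, 77.6 and 108 CPM in MA-10 and 208, 176 and 207 CPM in STARKO1 (0.88, SE 0.237, adjusted p = 0.0610).

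**Figure D3:**
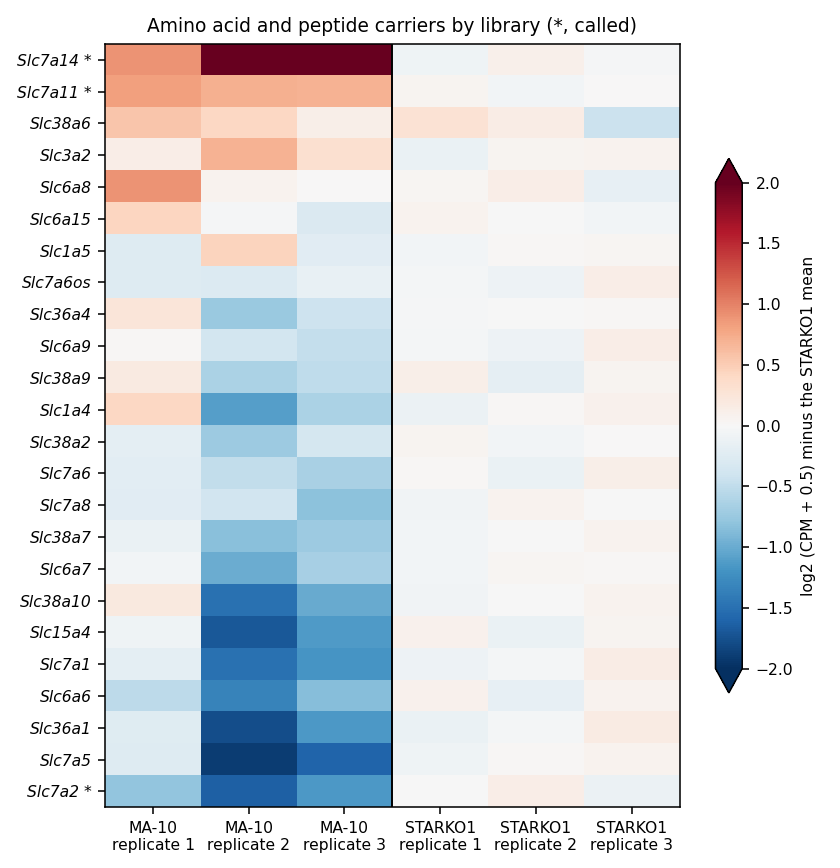
Amino acid and peptide carriers by library, as log2 (CPM + 0.5) minus the mean of the 3 STARKO1 libraries, in order of their fold change, with called genes starred and colours held at -2 and 2. Slc15a1, which had 0 counts in MA-10, is left out, so 24 of the 25 tested genes are drawn, and the lower rows are palest in MA-10 replicate 1.

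The sugar carriers held 1 called gene among 12 tested (8.33%, beside 9.04% of all genes), and their median of 0.58 was above that of all solute carriers. Slc2a9 is in this median, though it passed the filter on low counts through 1 line alone. With at least 10 counts in every library, 10 sugar carriers were tested. Their median was then 0.42, beside 0.24 for all solute carriers. Slc2a4 is the insulin-responsive glucose transporter of muscle and fat (chromosome 11, 69942539 to 69948188, minus strand). It had 2.52, 1.99 and 3.08 CPM in MA-10 and 7.44, 8.67 and 7.36 CPM in STARKO1. All MA-10 libraries were near each other and well below STARKO1, and the gene rose by 1.62 on the log2 scale (SE 0.232, adjusted p = 0.0128). The call was lost without any 1 STARKO1 library (adjusted p 0.0788 to 0.0918). Slc2a1, the glucose transporter of most cells in culture, had 72.3, 50.8 and 34.3 CPM in MA-10 and 51.8, 50.4 and 36.6 CPM in STARKO1, with overlapping lines (-0.18, SE 0.295, adjusted p = 0.663). Per kilobase of exon, Slc2a4 was thus the smaller of the pair in every library, at 0.0351, 0.0396 and 0.0907 of Slc2a1 in MA-10 and 0.145, 0.173 and 0.203 in STARKO1, a ratio chosen after its values were seen.

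The other tested Slc2 genes were Slc2a8 (-0.08, adjusted p = 0.880) and the urate carrier Slc2a9 (1.56, adjusted p = 0.0887). The inositol carrier Slc5a3 had 72.2, 39.5 and 55.8 CPM in MA-10 and 96.8, 95.5 and 97.5 CPM in STARKO1 (0.79, SE 0.233, adjusted p = 0.0698). Slc37a2, a sugar phosphate carrier, had the largest fitted difference of the uncalled members of the class, at 1.88 (SE 0.546, adjusted p = 0.0676), from 1.72, 0.347 and 2.38 CPM against 6.37, 4.24 and 5.90 CPM. No call was made for either, though their lines did not overlap. Slc5a3 and Slc37a2 were chosen after their values were seen.

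Slc16a3 exports lactate from cells with high glycolysis and is a textbook target of the hypoxia factor Hif1a, which is on the list of regulators. It lies on chromosome 11 at 120948480 to 120960868, plus strand. Its RefSeq promoter window is printed with the hypoxia response core ACGTG and the GC box GGGCGG in capitals, on either strand, and it begins from a start 587 bases inside the deposited one.
Slc16a3 (chr11:120948817-120949116, plus strand): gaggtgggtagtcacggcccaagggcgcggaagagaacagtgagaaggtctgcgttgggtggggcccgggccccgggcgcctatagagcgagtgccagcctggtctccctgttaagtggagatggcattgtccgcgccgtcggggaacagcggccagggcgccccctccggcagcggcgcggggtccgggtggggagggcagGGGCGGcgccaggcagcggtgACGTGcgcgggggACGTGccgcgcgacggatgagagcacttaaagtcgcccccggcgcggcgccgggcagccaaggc
The window holds 2 matches to ACGTG, present in 26.7% of the 8779 promoters, and 1 to GGGCGG, present in 67.3%. Slc16a3 had 66.0, 76.2 and 43.5 CPM in MA-10 and 13.6, 14.7 and 10.3 CPM in STARKO1. The MA-10 libraries were spread, MA-10 replicate 3 being the lowest, but each was above every STARKO1 library. The gene fell by 2.27 on the log2 scale (SE 0.265, adjusted p = 0.00699), and its call was lost without STARKO1 replicate 1 or 3 (adjusted p = 0.0586 and 0.0535).

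Slc16a1, which moves lactate and pyruvate both ways, had 162, 109 and 129 CPM in MA-10 and 128, 127 and 125 CPM in STARKO1. The lines overlapped, with a log2 difference of -0.08 (SE 0.189, adjusted p = 0.786). Per kilobase of exon, Slc16a3 stood to Slc16a1 as 0.339, 0.581 and 0.280 in MA-10 and as 0.0879, 0.0968 and 0.0684 in STARKO1, a ratio chosen after its values were seen. Slc16a6 (0.90, adjusted p = 0.113) and Slc16a13 (0.76, adjusted p = 0.108) had every STARKO1 library above every MA-10 library and no call. The chaperones that bring these carriers to the membrane, Bsg, Emb and Nptn, gave no call in 3 tested. Bsg had 417, 1054 and 629 CPM in MA-10 and 389, 414 and 345 CPM in STARKO1 (-0.87, SE 0.351, adjusted p = 0.122). Every MA-10 library of Bsg was above every STARKO1 library, MA-10 replicate 1 only narrowly, and Emb and Nptn had overlapping lines.

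Among the 23 tested carriers of bicarbonate, protons, sodium, chloride and other anions, Slc4a2 was the 1 called gene (4.35%, beside 9.04% of all genes). Slc4a2 exchanges chloride for bicarbonate across the plasma membrane (chromosome 5, 24423837 to 24440950, plus strand). It had 19.9, 12.5 and 12.5 CPM in MA-10 and 50.2, 48.8 and 64.9 CPM in STARKO1, with the lines far apart. The gene rose by 1.86 on the log2 scale (SE 0.248, adjusted p = 0.00994), the largest rise among called members with counts in both lines. Its exons share 13.7% of their bases with Fastk on the opposite strand. The call was lost without MA-10 replicate 3 or any STARKO1 library (adjusted p 0.0510 to 0.0661).

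The other tested Slc4 genes were not called and ran from -0.54 for Slc4a4 to 1.15 for Slc4a3 (adjusted p 0.0820 to 0.539). Among them the sodium bicarbonate carrier Slc4a7 had 82.4, 66.7 and 69.6 CPM in MA-10 and 82.5, 79.6 and 80.5 CPM in STARKO1. Per kilobase, Slc4a2 stood to Slc4a7 as 0.442, 0.342 and 0.328 in MA-10 and as 1.11, 1.12 and 1.47 in STARKO1, a ratio chosen after its values were seen, so the order of the pair differed between the lines. The 7 tested genes named Slc9, sodium-proton exchangers and their scaffolds, ran from -1.59 for Slc9a3r2 to 0.51 for Slc9a8, and the 5 tested Slc12 genes, cation-chloride carriers, reached 1.81 for Slc12a5, with no call in either family.

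**Figure D4:**
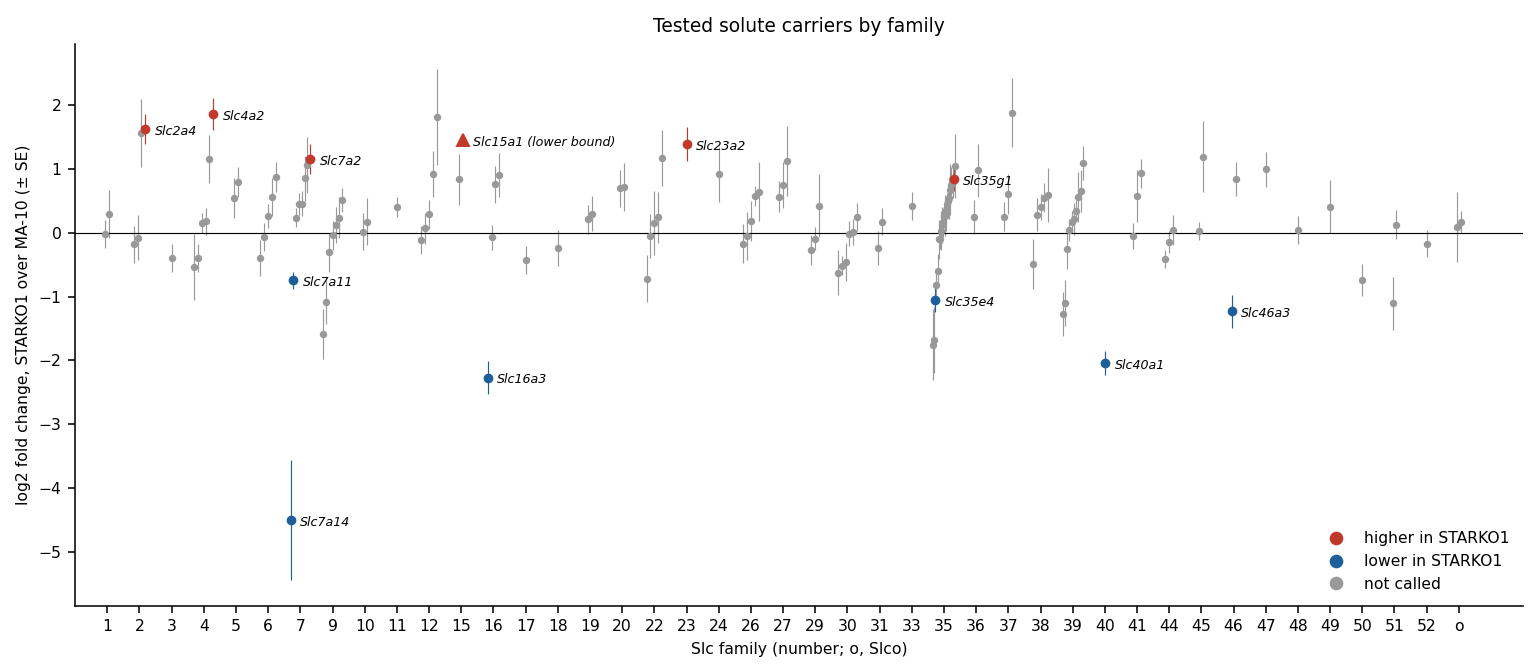
Log2 fold change (STARKO1 over MA-10) with its SE for the 143 tested solute carriers, by family number, with called genes coloured and named. Slc15a1 is drawn as a triangle at the log2 of its lower bound of 2.74-fold, and Slc35, with 21 genes, is the family with the most points.

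Of 23 tested carriers of zinc, iron, copper and magnesium, only Slc40a1 was called by the main test (4.35%, beside 9.04% of all genes). Slc40a1 is ferroportin, the exporter of iron from cells (chromosome 1, 45908068 to 45926523, minus strand). It had 18.2, 22.9 and 24.7 CPM in MA-10 and 5.08, 5.72 and 5.11 CPM in STARKO1. Both lines were tight, and the gene fell by 2.05 on the log2 scale (SE 0.188, adjusted p = 0.00335). With each library left out in turn, the call held every time, with log2 values from -2.10 to -1.93 and adjusted p up to 0.0434.

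Of the 7 iron genes listed as partners, 1 rose and 1 fell (28.6%, beside 9.04% of all genes). Tfrc, the transferrin receptor that brings iron in, rose by 1.75 on the log2 scale (SE 0.190, adjusted p = 0.00551), from 73.5, 51.6 and 63.4 CPM in MA-10 to 219, 198 and 217 CPM in STARKO1. Ftl1, the light chain of the iron store ferritin, fell by 2.54 (SE 0.381, adjusted p = 0.0147), from 1792, 4253 and 3904 CPM to 577, 603 and 534 CPM. MA-10 replicate 1 was the lowest MA-10 library for Ftl1. The other 5 iron genes (Fth1, Aco1, Ireb2, Heph and Steap3) were not called. Of these, Fth1 was lower in every STARKO1 library than in any MA-10 library (-1.11, adjusted p = 0.0657). Aco1 (0.40, adjusted p = 0.103) and Steap3 (1.10, adjusted p = 0.0957) were higher in the same way. Ireb2 and Heph had overlapping lines. The importer Slc11a2 had 35.4, 37.6 and 29.8 CPM in MA-10 and 46.7, 46.2 and 42.5 CPM in STARKO1 (0.40, SE 0.157, adjusted p = 0.118). Without STARKO1 replicate 1 or 3, Tfrc lost its call (adjusted p = 0.0510 and 0.0516), and Ftl1 did so without MA-10 replicate 3 or any STARKO1 library (0.0710 to 0.117).

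The zinc carriers gave no call in 16 tested genes. The 10 Slc39 genes, which bring zinc into the cytosol, ran from -1.27 for Slc39a4 to 1.09 for Slc39a3, and the 6 Slc30 genes, which take it out, from -0.62 for Slc30a9 to 0.24 for Slc30a2. Slc39a7, the zinc carrier of the endoplasmic reticulum, had 102, 282 and 148 CPM in MA-10 and 80.7, 81.8 and 86.6 CPM in STARKO1 (-1.10, SE 0.363, adjusted p = 0.0843). Its MA-10 libraries were spread more than the gap between MA-10 replicate 1 and STARKO1. Slc39a3 had 27.1, 17.2 and 13.7 CPM in MA-10 and 40.9, 44.4 and 38.7 CPM in STARKO1, and it missed the threshold as said above. Mt1, Mt2, Mt3 and Mtf1, which buffer and sense zinc, were not called. Mt1 had 496, 3706 and 2201 CPM in MA-10 and 382, 409 and 328 CPM in STARKO1 (-2.52, SE 0.667, adjusted p = 0.0600). Mt2 had 188, 713 and 358 CPM in MA-10 and 141, 147 and 118 CPM in STARKO1 (-1.63, SE 0.464, adjusted p = 0.0658). In both, every MA-10 library was above every STARKO1 library, and MA-10 replicate 1 was the nearest to STARKO1. Mt3 and Mtf1 had overlapping lines. The copper carriers Slc31a1 (-0.24) and Slc31a2 (0.17) had overlapping lines.

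Carriers of nucleosides, vitamins and cofactors had 1 rise and 1 fall among 11 tested (18.2%, beside 9.04% of all genes). Slc23a2 takes up ascorbate, or vitamin C, with sodium (chromosome 2, 132052496 to 132145108, minus strand), and Slc46a3 is a carrier of the lysosomal membrane (chromosome 5, 147878437 to 147894815, minus strand). Their RefSeq promoter windows are printed to show how unlike they are in the letters searched, with GGGCGG and TGANNNNGC in capitals on either strand.
Slc23a2 (chr2:132145059-132145358, minus strand): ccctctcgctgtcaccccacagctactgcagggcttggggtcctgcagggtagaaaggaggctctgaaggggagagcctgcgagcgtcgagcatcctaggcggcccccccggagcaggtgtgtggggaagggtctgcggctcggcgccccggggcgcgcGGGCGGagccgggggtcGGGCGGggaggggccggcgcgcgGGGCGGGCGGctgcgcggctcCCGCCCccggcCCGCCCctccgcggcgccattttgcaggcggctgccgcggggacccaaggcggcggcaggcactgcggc
Slc46a3 (chr5:147894766-147895065, minus strand): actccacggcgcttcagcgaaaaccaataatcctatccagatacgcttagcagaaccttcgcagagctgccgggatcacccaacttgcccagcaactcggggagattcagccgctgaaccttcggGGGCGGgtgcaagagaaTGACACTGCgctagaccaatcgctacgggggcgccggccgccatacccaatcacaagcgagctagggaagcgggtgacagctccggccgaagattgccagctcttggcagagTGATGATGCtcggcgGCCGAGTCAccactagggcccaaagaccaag
The Slc23a2 window holds 6 matches to GGGCGG, a pair of them overlapping, and none to TGANNNNGC, and the Slc46a3 window holds 1 and 3. Slc23a2 had 14.9, 8.50 and 8.63 CPM in MA-10 and 27.4, 25.7 and 31.2 CPM in STARKO1. MA-10 replicate 1 was the highest of its line but below every STARKO1 library, and the gene rose by 1.39 on the log2 scale (SE 0.260, adjusted p = 0.0276). Slc46a3 had 3.67, 3.21 and 4.05 CPM in MA-10 and 1.85, 1.47 and 1.29 CPM in STARKO1. Its lines were apart at a low level, and it fell by 1.23 (SE 0.257, adjusted p = 0.0364). Of the fits without a library, both calls held only without MA-10 replicate 1 (adjusted p in the others 0.0654 to 0.149 for Slc23a2 and 0.0559 to 0.192 for Slc46a3).

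The other member of the family of Slc46a3, the proton-coupled folate carrier Slc46a1, had 1.37, 1.99 and 2.20 CPM in MA-10 and 3.14, 3.18 and 3.54 CPM in STARKO1 (0.83, SE 0.268, adjusted p = 0.0801). The nucleoside carrier Slc29a1 (-0.27, adjusted p = 0.398), the heme carrier Slc48a1 (0.04, adjusted p = 0.899) and the thiamine carrier Slc19a2 (0.30, adjusted p = 0.442) had overlapping lines.

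The Slc35 family, most of whose known members bring nucleotide sugars into the Golgi and the endoplasmic reticulum, had all of its 21 genes tested. Among them 1 rose and 1 fell (9.52%, beside 9.04% of all genes). Slc35g1 (chromosome 19, 38395980 to 38405610, plus strand) had 26.4, 23.0 and 18.1 CPM in MA-10 and 43.2, 38.0 and 39.4 CPM in STARKO1. It rose by 0.84 on the log2 scale (SE 0.185, adjusted p = 0.0416), with the lines clearly apart. Slc35e4 (chromosome 11, 3907021 to 3914664, minus strand) had 29.9, 44.3 and 42.4 CPM in MA-10 and 19.4, 17.8 and 18.9 CPM in STARKO1. It fell by 1.05 (SE 0.194, adjusted p = 0.0263), and MA-10 replicate 1 was the MA-10 library nearest to STARKO1. Here too both calls held, of the fits without a library, only without MA-10 replicate 1 (adjusted p otherwise 0.0799 to 0.182 for Slc35g1 and 0.0567 to 0.155 for Slc35e4).

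The other 19 Slc35 genes ran from -1.76 for Slc35b3 to 1.04 for Slc35e1 (adjusted p 0.0726 to 0.942). Slc35b2 and Slc35b3, which carry the sulfate donor PAPS into the Golgi, showed how far MA-10 replicate 1 stood from its group. Slc35b2 had 35.9, 177 and 118 CPM in MA-10 and 31.4, 35.7 and 36.4 CPM in STARKO1, and Slc35b3 had 5.04, 26.7 and 20.9 CPM and 5.25, 4.72 and 5.51 CPM. In both genes MA-10 replicate 1 fell among the STARKO1 libraries, the other MA-10 libraries were far above, and neither gene was called (adjusted p = 0.0757 and 0.0782). Slc35e1 had the opposite order, with 37.9, 8.59 and 14.4 CPM in MA-10 and 40.8, 42.8 and 42.1 CPM in STARKO1 (adjusted p = 0.173).

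No call was made among the 19 tested carriers of organic anions, organic cations, bile salts and lipids, whose median was 0.15. The fatty acid transport proteins Slc27a1, Slc27a3 and Slc27a4 ran from 0.57 to 1.12 (adjusted p 0.137 to 0.176). Slc27a1 had 26.2, 4.94 and 9.42 CPM in MA-10 and 28.7, 29.2 and 31.0 CPM in STARKO1. The choline carrier Slc44a1 had 98.0, 94.4 and 99.2 CPM in MA-10 and 73.0, 75.5 and 71.2 CPM in STARKO1, tight in both lines (-0.41, SE 0.137, adjusted p = 0.0865). The prostaglandin carrier Slco2a1 (0.09) and the steroid sulfate carrier Slco2b1 (0.16) had overlapping lines. The genes named in these sentences were chosen after their values were seen. The remaining classes were small, with the 2 phosphate importers Slc20a1 and Slc20a2 at 0.70 and 0.71, the calcium exchanger Slc24a3 at 0.91, and Slc17a5 and Slc18b1 at -0.43 and -0.24, none called.

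Levels between genes were compared per kilobase of exon, as CPM per kilobase averaged over both lines. Slc3a2 was the highest solute carrier at 108.8, followed by Slc7a5 (88.0), Slc39a7 (50.4), Slc38a2 (41.5), Slc48a1 (40.9), Slc16a1 (29.4), Slc9a3r1 (23.7), Slc35b2 (23.3), Slc7a1 (23.1) and Slc29a1 (19.8). None of these 10 was called. Slc3a2 stood at 123.7 ± 25.4 in MA-10 and 93.9 ± 7.61 in STARKO1, and Slc7a5 at 56.9 ± 37.3 and 119.1 ± 7.0 (SD, n = 3), so Slc3a2 was the higher of the pair in MA-10 and Slc7a5 in STARKO1. In MA-10 Slc39a7 (68.7 ± 36.2) came between them, within the spread of Slc7a5, and from Slc16a1 to Slc29a1 neighbours in the order differed in that line by less than the larger of their SDs.

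**Figure D5:**
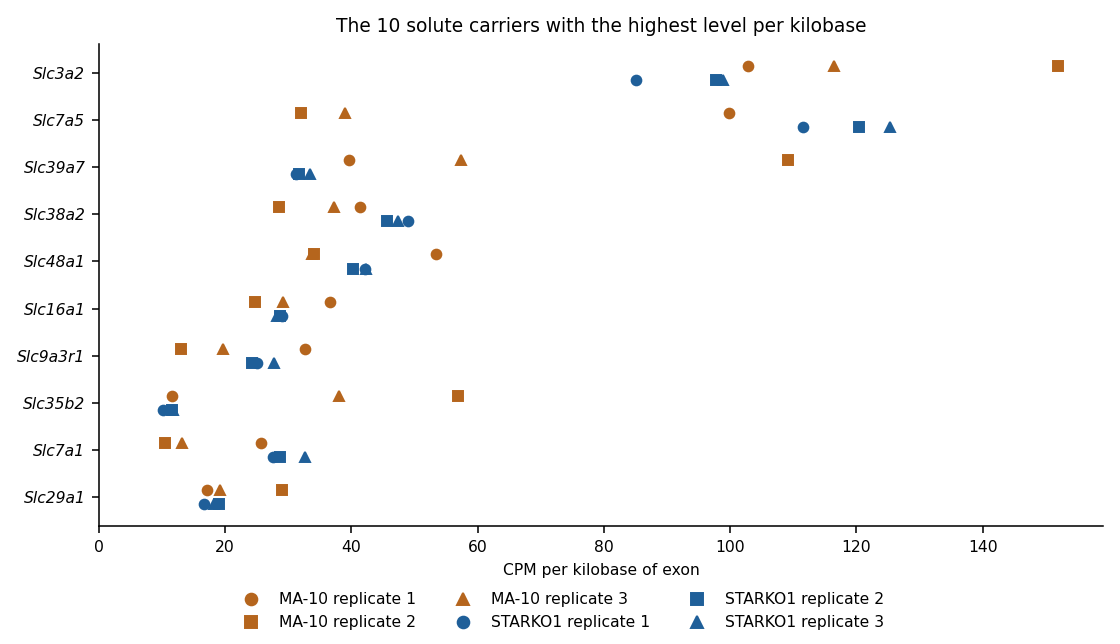
CPM per kilobase of exon in each library for the 10 solute carriers with the highest mean over both lines, MA-10 above STARKO1 in each row. The STARKO1 points of a gene lie close together, while the MA-10 points of Slc7a5 run from 32.0 to 99.8 and those of Slc39a7 from 39.6 to 109.2.

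The 23 untested solute carriers were low, with at most 48 summed counts and at most 24 in 1 library. With no filter on low counts, 3 of them were called, beside 947 of all 14774 genes. No share was taken over the low genes alone. Slc12a2, the sodium-potassium-chloride importer, had 12, 12 and 9 counts in MA-10 and 0 in each STARKO1 library, at least 4.75-fold lower in STARKO1 against 3 counts in the library where they weigh most. Slc27a6, a fatty acid transport protein, had 0 counts in each MA-10 library and 17, 16 and 9 in STARKO1, at least 2.75-fold higher. The urea carrier Slc14a2 had 1, 0 and 0 counts in MA-10 and 12, 11 and 12 in STARKO1. A count of 0 allows up to 3 counts, and these limits cover counting error only.

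Partner proteins and regulators of solute carriers were read from a list of 82 genes, of which 68 were tested, 3 rose and 4 fell (10.3%, beside the 9.04% of all genes). Their median log2 fold change was -0.25, beside -0.05 over all genes. With library sizes alone the medians moved to 0.16 and 0.38, so the partners stayed below all genes in both fits. Atp1b1, a subunit of the sodium-potassium pump, whose gradient drives sodium-coupled carriers, rose by 1.02 (SE 0.223, adjusted p = 0.0401). It had 10.3, 16.9 and 15.7 CPM in MA-10 and 28.9, 26.4 and 31.6 CPM in STARKO1. The kinase Wnk4, which acts on cation-chloride carriers, fell by 1.83 (SE 0.358, adjusted p = 0.0312). None of the 16 vacuolar proton pump genes and none of the 11 genes of amino acid sensing at the lysosome was called. At an unadjusted p under 0.05, 9 of the pump genes were lower and 0 higher (56.25%), with a median of -0.59. Of the sensing genes 5 were lower and 1 higher (54.5%), with a median of -0.36. Of all 11939 tested genes, 2707 were lower and 1786 higher at that p (37.6%). All MA-10 libraries lay above all STARKO1 libraries for 4 pump genes and the reverse held for 4. For the sensing genes these numbers were 3 and 1, beside 21% and 21.5% of all tested genes. Atp6v1f, the pump gene with the largest fitted fall, had 32.3, 546 and 300 CPM in MA-10 and 33.3, 34.9 and 33.7 CPM in STARKO1.

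Txnip, an arrestin that draws glucose transporters from the cell surface, fell by 1.81 on the log2 scale (SE 0.276, adjusted p = 0.0152), with 125, 68.5 and 77.6 CPM in MA-10 and 25.6, 30.1 and 21.5 CPM in STARKO1. Hif1a fell by 1.10 (SE 0.248, adjusted p = 0.0430), with 578, 576 and 910.3 CPM in MA-10 and 331, 303 and 327 CPM in STARKO1. Atf4 and Nfe2l2 were not called. Left out in turn, any library but MA-10 replicate 1 ended the calls of Atp1b1 (adjusted p 0.0559 to 0.185) and Hif1a (0.0535 to 0.205). MA-10 replicate 3 or any STARKO1 library ended those of Wnk4 (0.101 to 0.170) and Txnip (0.0634 to 0.114).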

How the data were processed

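Total RNA of 3 MA-10 and 3 STARKO1 libraries was sequenced from a stranded SMARTer Pico V2 preparation. What the authors deposited is 1 table of estimated counts for all libraries, in which 54.2% of genes have a value that is not whole. The submitters' processing notes name STAR 2.6.1d, Partek and mm10, and the counting rule and its use of strand are not given in the sources used here. Every gene in the table has at least 10 summed counts. Gene models, lengths and overlaps were read from GENCODE M21 (14677 genes found, 14634 with the same start), and promoter windows from RefSeq (9 of the 12 called solute carriers and 111 of the tested ones matched). Slc2a4, Slc7a2 and Slc40a1 had no window.

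Counts were rounded to whole numbers, filtered with filterByExpr and scaled by TMM, and the lines were compared with edgeR 4.0.16 in R 4.3.3 (glmQLFit and glmQLFTest, line as the only term, Benjamini-Hochberg over 11939 genes, biological coefficient of variation 0.291). The SE is the log2 fold change divided by the square root of F. Depth was 14114349 to 19530054 counts per library. Scripts were tested on simulated data. Alternatives were DESeq2 1.42.0, other scalings and filters, other thresholds, the replicate number as a block and each library left out. No per-sample column was left unmapped.

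The genes, classes and lists were chosen with earlier results of these data known. Named were all called solute carriers, the 10 highest per kilobase, the other tested members of a family with a call, called partners and any with at most 3 counts in each library of 1 line and at least 20 in each of the other, of which there were 0. Some genes under these rules are not reported here. Other genes named in the report were chosen after their values were seen.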

Additional observations from a re-analysis of the deposited data

How the results depend on the processing

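The 12 called solute carriers kept their sign in every alternative that tested them. DESeq2 called 16 higher and 15 lower among the solute carriers, library size alone 3 and 2, a threshold of 0.01 1 and 2, and a threshold of 0.1 18 and 16. Over all genes the calls were 3395, 330, 179 and 3471, and 695 with at least 10 counts in every library. Partners and regulators gave 7 higher and 17 lower with DESeq2, 3 and 2 with upper quartile scaling, 3 and 1 with library size alone, 2 and 0 at 0.01, and 6 and 20 at 0.1. With libraries left out in turn, solute carriers called ran from 0 to 80 higher and from 1 to 21 lower, all genes from 89 to 7990, and partners from 0 to 23 higher and from 0 to 32 lower. MA-10 replicate 1 left out gave the highest of each.

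Same-numbered libraries did not deviate together (correlations -0.02, 0.05 and 0.02), and the replicate number as a block gave 234 calls over all genes, 1 higher and 3 lower solute carriers, and 2 higher and 1 lower partners.

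Among solute carriers, signs turned only for uncalled ones, and the cause was not tested. Positive values rose from 65.7% of tested solute carriers to 83.9% with library size alone and 74.8% with upper quartile scaling. The list below covers only genes named by the rules above, and other members turned too. With library size alone, the log2 fold change of Slc16a1 was 0.31, of Slc29a1 0.23, of Slc2a1 0.18, of Slc2a8 0.23, of Slc35a3 0.31, of Slc35d1 0.23, of Slc3a2 0.090 and of Slc4a1ap 0.10. With upper quartile scaling, which moved the median of all genes from -0.05 to 0.095, Slc16a1 was at 0.055, Slc2a8 at 0.028, Slc35a3 at 0.045 and Slc35d1 at 0.011, and with the block Slc2a8 was at 0.034. With libraries left out, Slc16a1 ran from -0.20 to 0.18, Slc2a1 from -0.41 to 0.22, Slc2a8 from -0.31 to 0.53, Slc35a3 from -0.19 to 0.073, Slc35b1 from -0.16 to 0.22, Slc35c1 from -0.051 to 0.60, Slc35d1 from -0.31 to 0.41, Slc48a1 from -0.073 to 0.39 and Slc9a3r1 from -0.032 to 0.73. Depth limits the 23 untested solute carriers, with at most 48 summed counts each.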
